A study of Bos taurus with 8 samples.

Results

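The genes of steroid hormone synthesis were followed here from cholesterol import to estrogen in the inner cell mass (ICM) and the trophectoderm (TE) of bovine blastocysts. The set holds 9 genes, STAR, CYP11A1, FDX1, FDXR, HSD3B1, CYP17A1, CYP19A1, HSD17B1 and SRD5A3, and its members are the array probes whose platform annotation carries one of these symbols. Of the 9 genes, 8 had at least 1 named probe, and together they had 12 of the 43794 probes of the array. FDXR, the reductase that hands electrons to ferredoxin, had no named probe and was not analysed here.

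Both groups came from blastocysts that had developed in vivo and were flushed at day 7.5 post insemination from 26 superovulated Holstein cows. The embryos were cut with a blade into a piece of TE alone and a piece that held the ICM, and the TE cells of that second piece were then lysed with antiserum and complement to leave the ICM. Tissue was collected in 4 ICM pools and 4 TE pools, so every value is a mean over several embryos, and fewer cells of a type and less RNA per cell cannot be told apart. The amplified RNA of each ICM pool was hybridised with that of a TE pool on 2 two-color arrays, 1 with ICM in Cy5 and 1 with ICM in Cy3, which gave 8 arrays and 4 pool pairs. The incubation with antiserum and complement thus touched only the ICM pieces and cannot be told apart from the tissue. The sources name no difference in genotype between the groups, and all donors had been superovulated.

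Steroid hormones are made from cholesterol in a fixed order of steps. STAR carries cholesterol to the inner mitochondrial membrane, where the side chain cleavage enzyme CYP11A1 turns it into pregnenolone with electrons that reach it through the ferredoxin FDX1. HSD3B1 converts pregnenolone to progesterone, CYP17A1 leads on to the androgens, and the aromatase CYP19A1 with HSD17B1 makes the active estrogens. Trophoblast is known as a steroid-producing tissue in ruminants, where the placenta makes progesterone and estrogens during pregnancy.

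Each channel was assigned to a tissue by the dye that its label names. The resulting direction is the reverse of the study's, so values are given by label, as the ratio of ICM-labelled over TE-labelled RNA. An exchange of the labels would turn the sign of every ratio given here, and whether one took place was not tested. On each channel, 48.2% to 65.6% of the probes exceeded the detection limit, set at the mean of 153 negative control spots plus 2 SD. The markers of both tissues stood against these labels. Of 17 measured trophoblast markers, 11 were higher and 0 lower with the ICM label, and of 11 measured epiblast markers, 0 were higher and 5 lower. The transcription factor gene TFAP2A had a log2 ratio of 2.05 (SE 0.06, n = 4 pool pairs, adjusted p = 0.00127 in limma), GATA3 one of 0.82 (adjusted p = 0.00168) and the peptidase gene ENPEP one of 1.72 (adjusted p = 0.00168). The pluripotency gene NANOG was at -3.50 (adjusted p = 0.00317), DPPA3 at -0.40 (adjusted p = 0.00398) and POU5F1 at -0.84 (adjusted p = 0.00627). TFAP2A passed by 1 of 3 probes and DPPA3 by 1 of 2, and the trophoblast marker EOMES was above the detection limit on 0 channels. Each of the 2 slides held the 4 arrays of one dye orientation, so the slide and the orientation cannot be told apart.

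Of the 8 measured steroid synthesis genes, 5 were higher with the ICM label and 0 were lower. These were STAR, CYP11A1, FDX1, HSD3B1 and SRD5A3, with ratios of 1.80-fold to 2.78-fold. CYP17A1, CYP19A1 and HSD17B1 did not pass the limit, which was an adjusted p at or under 0.01. Over all 15229 named genes, each taken by its brightest probe, 3.35% were called higher and 1.92% lower, and over all 43794 probes 1.92% were called higher. The median log2 ratio of the 8 genes was 0.86 and that of all named genes 0.00824. The trophoblast markers moved in the same direction as the steroid genes. Their summed log2 level was 199.9 to 205.5 in the 4 pools labelled ICM and 184.2 to 189.4 in the 4 pools labelled TE, and their part in the result was not tested. The call rested on all 4 pool pairs. Without pool pair 1, 4 genes passed and FDX1 did not (adjusted p = 0.0168), and without pool pair 2, 3 or 4 none of the 43794 probes passed in limma, while 8351, 8731 and 9320 of them had an unadjusted p under 0.05. On the arrays of one orientation alone, 5 steroid genes passed with ICM in Cy5 and 3 with ICM in Cy3, where CYP11A1 (adjusted p = 0.0107) and FDX1 (adjusted p = 0.0245) missed the limit.

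**Figure D1:**
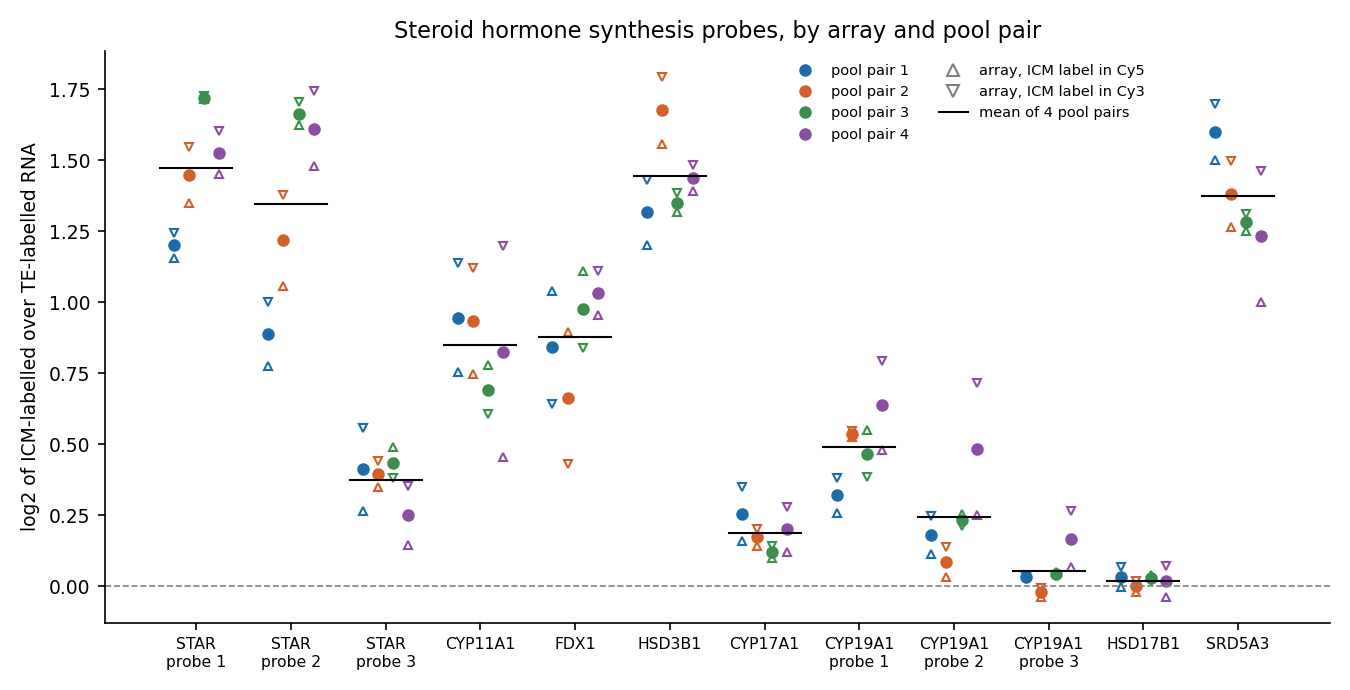
Log2 ratio of ICM-labelled over TE-labelled RNA (y axis) for the 12 probes of the set in pathway order, with a filled circle for each of the 4 pool pairs, an open triangle for each array and a bar at the mean. All arrays lie above 0 for 10 of the 12 probes, and those of the third CYP19A1 probe and of HSD17B1, which was not well above background, lie around 0.

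Cholesterol import was represented by STAR, whose brightest probe (EMBV3_03849) had the highest mean ratio of the 12 probes, within the pair spread of that of HSD3B1. In the authors' log2 ratios CYP11A1 was higher, at 1.57 against 1.55. The normalized log2 intensity of this STAR probe was 11.62, 12.01, 12.27 and 11.83 in ICM-labelled pools 1 to 4 and 10.42, 10.57, 10.55 and 10.30 in the TE-labelled pools. The lowest ICM-labelled pool thus lay more than 1 log2 unit above the highest TE-labelled pool. The log2 ratio was 1.20, 1.45, 1.72 and 1.53 in pool pairs 1 to 4, with a mean of 1.47 (SE 0.09), a 2.78-fold difference (adjusted p = 0.00326). The raw signal was well away from the background, at 2729 to 5098 units on the ICM-labelled channels and 1126 to 1636 on the TE-labelled ones.

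The other STAR probes had the same sign but not the same size. Probe EMBV3_20036 gave log2 ratios of 0.89, 1.22, 1.66 and 1.61, with a mean of 1.35 and a wider spread (SE 0.15), and missed the limit (adjusted p = 0.0112). Both probes were thus lowest in pool pair 1 and highest in pool pair 3. The dim probe EMBV3_18125 had log2 ratios of 0.41, 0.40, 0.44 and 0.25, with a mean of 0.37 (SE 0.04, adjusted p = 0.00991). Its raw signal was 149 to 288 units on the TE-labelled channels, of which 7 of 8 were above the detection limit, and its pools overlapped between the labels.

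Side chain cleavage, the first and committing step, was represented by CYP11A1 and its electron donor FDX1. For CYP11A1 (EMBV3_31025) the log2 level was 9.15, 9.20, 8.90 and 8.74 in the ICM-labelled pools and 8.21, 8.27, 8.20 and 7.91 in the TE-labelled pools. The groups did not overlap, and pool pair 4 was the lowest with both labels. The log2 ratio was 0.95, 0.93, 0.69 and 0.83, with a mean of 0.85 (SE 0.05), a 1.80-fold difference (adjusted p = 0.00326). The signal was dim, at 138 to 402 raw units on the TE-labelled channels, of which 7 of 8 were above the detection limit. Its mean log2 ratio was 0.68 on the arrays with ICM in Cy5 and 1.02 on those with ICM in Cy3.

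FDX1 (EMBV3_20721) was bright on every channel, at 6347 to 18098 raw units, with no saturated spot. Its log2 level was 14.19, 13.80, 13.64 and 13.98 in the ICM-labelled pools and 13.34, 13.13, 12.66 and 12.95 in the TE-labelled pools. The lowest ICM-labelled pool, of pair 3, lay above the highest TE-labelled pool, of pair 1. In pool pairs 1 to 4 its log2 ratio was 0.84, 0.66, 0.98 and 1.03, with a mean of 0.88 (SE 0.07), a 1.84-fold difference (adjusted p = 0.00532). Here the orientations stood the other way round from CYP11A1, with a mean of 1.00 with ICM in Cy5 and 0.76 with ICM in Cy3.

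HSD3B1 (EMBV3_35958), the enzyme that makes progesterone, had the smallest adjusted p of the set. Its log2 level was 11.88, 11.78, 11.38 and 11.20 in the ICM-labelled pools and 10.57, 10.10, 10.03 and 9.76 in the TE-labelled pools. Pool pair 1 was the highest and pool pair 4 the lowest with both labels, and the groups did not overlap. The log2 ratio was 1.32, 1.68, 1.35 and 1.44, with a mean of 1.44 (SE 0.07), a 2.72-fold difference (adjusted p = 0.00229).

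The members of the androgen and estrogen steps, CYP17A1, CYP19A1 and HSD17B1, did not pass in the main fit. CYP17A1 (EMBV3_42627), which carries the hydroxylase and lyase steps toward the androgens, was dim, at 135 to 404 raw units, though above the detection limit on all 16 channels. Its log2 level was 8.31, 8.28, 8.32 and 8.28 in the ICM-labelled pools and 8.05, 8.11, 8.20 and 8.08 in the TE-labelled pools, which did not overlap. The pool pairs gave log2 ratios of 0.26, 0.17, 0.12 and 0.20, with a mean of 0.19 (95% confidence interval 0.11 to 0.27), which did not pass (adjusted p = 0.0271). With all 8 arrays fitted and the pool pair as replicate block, it passed (adjusted p = 0.00286). CYP17A1 also passed after plain background subtraction, at 0.39 (adjusted p = 0.00858), and with no background correction, at 0.31 (adjusted p = 0.00577). In 13 of 18 other settings it did not pass. The authors' log2 ratios gave 0.43 (adjusted p = 0.0199) and the median spot signal 0.15 (adjusted p = 0.226).

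CYP19A1, the aromatase gene, had 3 probes that differed from each other. The brightest, EMBV3_07330, had log2 levels of 8.36, 8.69, 8.71 and 8.70 in the ICM-labelled pools and 8.05, 8.15, 8.24 and 8.06 in the TE-labelled pools. These did not overlap, and ICM-labelled pool 1 stood below the other 3. Its log2 ratios were 0.32, 0.54, 0.47 and 0.64, with a mean of 0.49 (95% confidence interval 0.34 to 0.64), which missed the limit (adjusted p = 0.0126). It passed after plain background subtraction, at 0.87 (adjusted p = 0.00622), and in the authors' log2 ratios, at 1.11 (adjusted p = 0.000169). It also passed with the pool pair as replicate block (adjusted p = 0.000210), a fit that took the arrays of a pair as nearly independent. In 10 of 19 other settings it did not pass, including the mean over the 3 probes, at 0.26 (adjusted p = 0.0395). Probe EMBV3_36093 gave 0.18, 0.09, 0.23 and 0.48, with a mean of 0.25 (adjusted p = 0.122), and only 3 of its 8 TE-labelled channels were above the detection limit. Probe EMBV3_08064 was above it on 4 of 16 channels, and its mean of 0.05 (adjusted p = 0.519) rests in pool pair 1 on a single array, because 1 spot was marked as ignored.

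HSD17B1, which reduces estrone to estradiol, was not well above background with either label. None of the 16 channels exceeded the detection limit at 86.9 to 281 raw units, so no ratio is given. SRD5A3 (EMBV3_40637) belongs to the steroid reductase family, and in human it is known for its part in polyprenol metabolism for protein glycosylation. Its log2 level was 11.08, 11.04, 10.95 and 10.35 in the ICM-labelled pools and 9.48, 9.66, 9.67 and 9.12 in the TE-labelled pools, with pool pair 4 lowest with both labels. Its log2 ratios were 1.60, 1.38, 1.28 and 1.23, with a mean of 1.37 (SE 0.07), a 2.59-fold difference (adjusted p = 0.00257). It was highest in pool pair 1, where the STAR probes EMBV3_03849 and EMBV3_20036 were lowest.

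**Figure D2:**
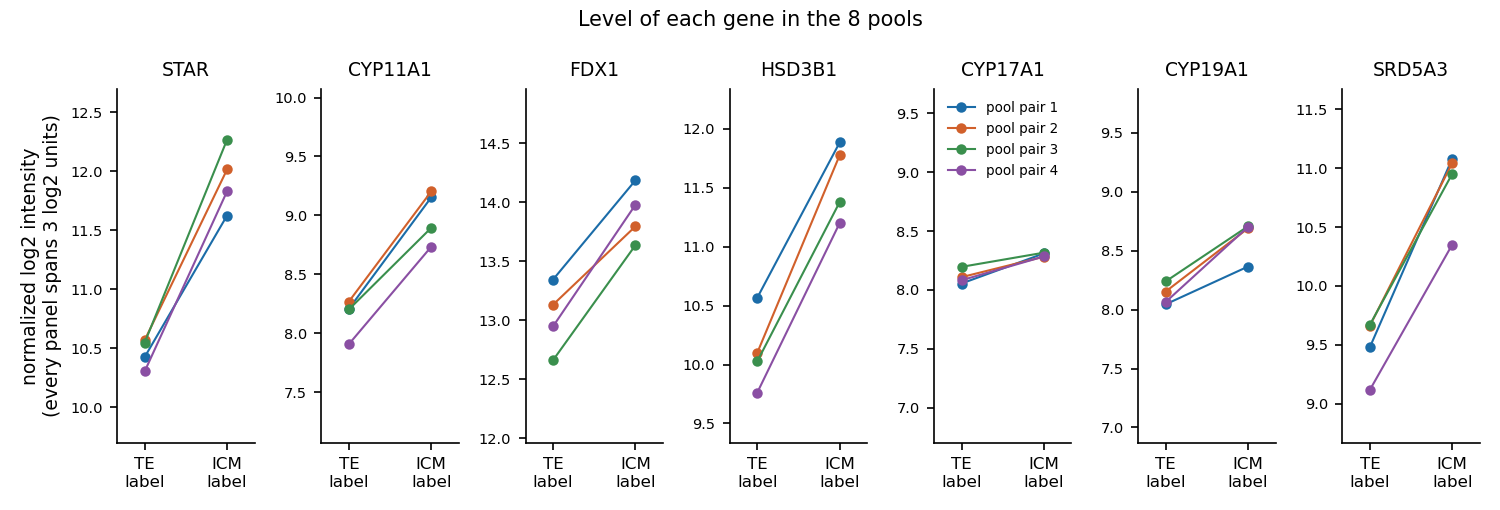
Normalized log2 intensity (y axis, each panel spanning 3 log2 units) of the brightest probe of 7 steroid synthesis genes in the TE-labelled and ICM-labelled pools, with a line joining the pools of each of the 4 pairs. Every line rises toward the ICM label, and in no panel do the 4 ICM-labelled pools overlap the 4 TE-labelled pools.

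In 7 of the 8 genes the ratio was above 0 on all 8 arrays and the pools of the labels did not overlap, the exception being HSD17B1. Over all named genes, 11.7% were higher with the ICM label on all 8 arrays, and 9.15% were higher with pools that did not overlap. The ratios of the 7 genes fell into 4 ranges over the pool pairs. STAR, HSD3B1 and SRD5A3 lay between 1.20 and 1.72 and did not differ from each other beyond the spread of the pairs. CYP11A1 and FDX1 lay between 0.66 and 1.03 and likewise overlapped. CYP19A1 lay between 0.32 and 0.64 and CYP17A1 between 0.12 and 0.26, each below the range before it.

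This order changed with the processing. With plain subtraction of the local background the mean log2 ratio of CYP11A1 was 1.37, that of CYP19A1 0.87 and that of CYP17A1 0.39, and in the authors' table of log2 ratios, which also differs in its normalization, the means were 1.57, 1.11 and 0.43. In both, the pool pairs of CYP11A1 overlapped the range of STAR, HSD3B1 and SRD5A3. With median centring in place of loess, the pairs of STAR, HSD3B1 and SRD5A3 spanned 0.89 to 1.98 and those of CYP11A1 and FDX1 0.61 to 1.30, so that these ranges overlapped as well. The brighter genes moved less, with 1.54 for STAR, 1.53 for HSD3B1, 1.50 for SRD5A3 and 0.91 for FDX1 after plain subtraction. All 7 means stayed above 0 under every setting tried, and each of the 7 genes had an unadjusted p under 0.05 in every fit over all probes. With median centring, however, none of them passed, with adjusted p from 0.0389 for STAR to 0.110 for CYP17A1, and 1 probe of the whole array was called.

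**Figure D3:**
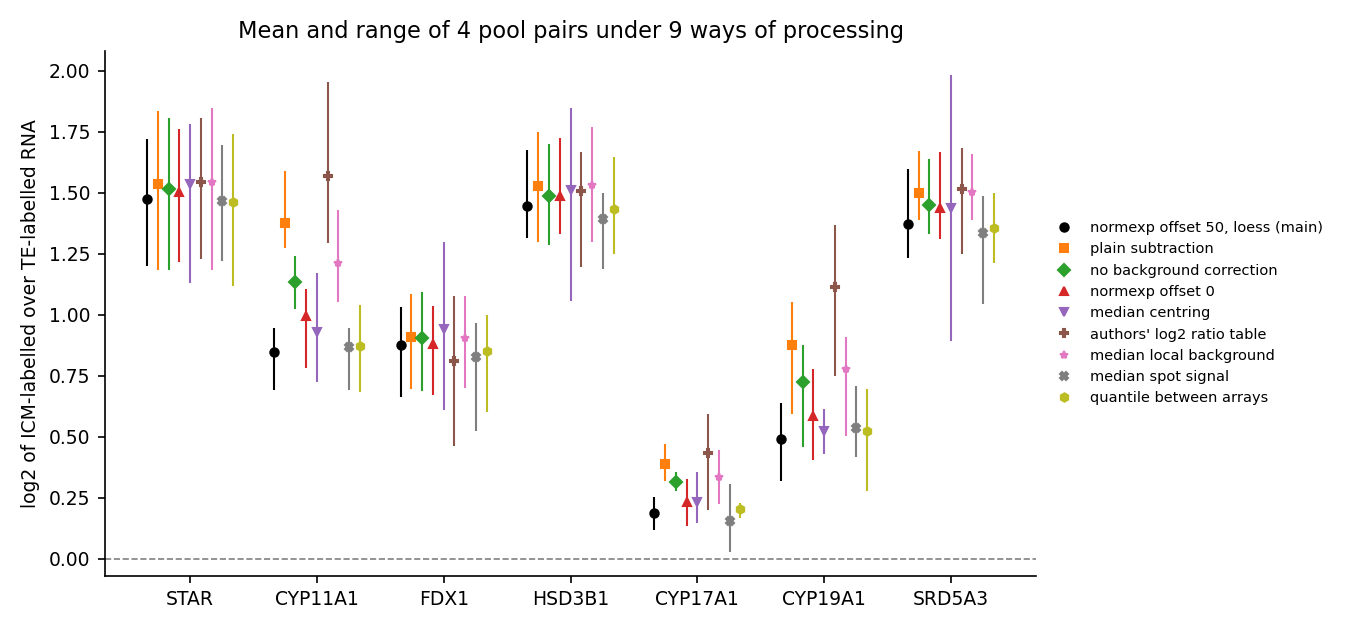
Mean log2 ratio of ICM-labelled over TE-labelled RNA (y axis, symbols) and the range of the 4 pool pairs (lines) for 7 steroid synthesis genes under 9 ways of processing the same arrays. STAR, HSD3B1, SRD5A3 and FDX1 keep similar means, whereas CYP11A1 runs from 0.85 to 1.57 and CYP19A1 from 0.49 to 1.11.

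The genes around the pathway were mostly not called. Of 83 other genes listed by role, 72 were measured, and 7 were higher, 0 lower and 65 did not pass, with a median log2 ratio of 0.02. Over all 15229 named genes, 3.35% were called higher and 1.92% lower. Of the 72 genes, 14 were higher and 6 lower with the pool pair as replicate block, which took the arrays of a pair as nearly independent. Without pool pair 1, 4 were higher and 1 lower, and none was called without pool pair 2, 3 or 4.

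Among 15 measured genes of cholesterol supply, SOAT1, whose enzyme stores cholesterol as esters, alone passed by its brightest probe. Its log2 ratio was 0.91, 0.70, 0.86 and 0.54 in the 4 pool pairs, with a mean of 0.75 (SE 0.07, adjusted p = 0.00764). The sterol carrier gene SCP2 did not pass by the brightest of its 5 probes, at 0.11 (adjusted p = 0.762), while 2 of the others did, at 0.90 (adjusted p = 0.00131) and 1.00 (adjusted p = 0.00127). Of 7 measured electron transfer partners, 2 were higher. CYB5A, cytochrome b5, which is known to aid the lyase step of CYP17A1, had a mean of 0.74 (SE 0.06, adjusted p = 0.00503) by 1 of its 3 probes. A second CYB5A probe, also above the detection limit on all 16 channels, gave 0.03 (adjusted p = 0.777), and the mean over the 3 probes was 0.24 and did not pass (adjusted p = 0.0154). CYB5R3, the reductase of cytochrome b5, had a mean of 0.85 (SE 0.05, adjusted p = 0.00293) and pair values of 0.96, 0.89, 0.84 and 0.70.

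Of 27 other measured steroid enzymes, 2 were higher. HSD17B11, a short-chain dehydrogenase of lipid droplets, had log2 ratios of 1.61, 1.32, 1.35 and 1.01 in the pool pairs, with a mean of 1.32 (SE 0.10, adjusted p = 0.00506) by 1 of its 2 probes. AKR1B1, an aldo-keto reductase, had ratios of 1.04, 1.41, 1.37 and 1.08, with a mean of 1.23 (SE 0.08, adjusted p = 0.00386). Its second probe, also above the detection limit on all 16 channels, gave 0.31 (adjusted p = 0.0464).

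None of the 16 regulators of steroid synthesis passed by its brightest probe, and NR0B1, CREM and FOXL2 among them were above the detection limit on 0 channels. By brightest probe, those with the smallest p were PRKAR1A, a regulatory subunit of protein kinase A, at -0.67 (SE 0.09, adjusted p = 0.0198), and the sterol-sensing factor gene SREBF1, at 0.83 (SE 0.16, adjusted p = 0.0473). With the pool pair as replicate block both passed (adjusted p = 0.000272 and 0.00206), but that fit took the arrays of a pair as nearly independent. A dimmer probe of SREBF2, EMBV3_37027, gave 1.30 (adjusted p = 0.0150) against 0.43 for the brightest. In the other direction, a dimmer probe of NR5A2, EMBV3_40939, gave -1.03 (adjusted p = 0.0641) against 0.23 for the brightest. NR4A1 had the lowest log2 ratio of the regulators by brightest probe, at -1.41 (SE 0.35, adjusted p = 0.0862). NR5A1, the factor SF-1 that drives steroid enzyme genes in gonad and adrenal and is named here with its value known, had a log2 ratio of 0.09 (SE 0.03, adjusted p = 0.215).

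Of 7 measured steroid receptor genes, the membrane-associated progesterone receptor components PGRMC1 and PGRMC2 were higher, each by 1 of 3 probes. PGRMC1 had log2 ratios of 0.78, 0.81, 1.19 and 0.75, with a mean of 0.88 (SE 0.09, adjusted p = 0.00849). A second PGRMC1 probe, above the detection limit on all 16 channels, gave 0.62 (adjusted p = 0.0117). The third gave 0.12 (adjusted p = 0.212) and was above the limit on 3 ICM-labelled and 0 TE-labelled channels. PGRMC2 had 0.84, 0.95, 0.51 and 0.81, with a mean of 0.78 (SE 0.08, adjusted p = 0.00900). The other PGRMC2 probes, also above the detection limit on all 16 channels, gave 0.58 (adjusted p = 0.0519) and 0.14 (adjusted p = 0.132). The nuclear receptor genes ESR1 and PGR were above the detection limit on 0 channels, and ESR2, of the other nuclear estrogen receptor, on 4 ICM-labelled and 5 TE-labelled channels.

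**Figure D4:**
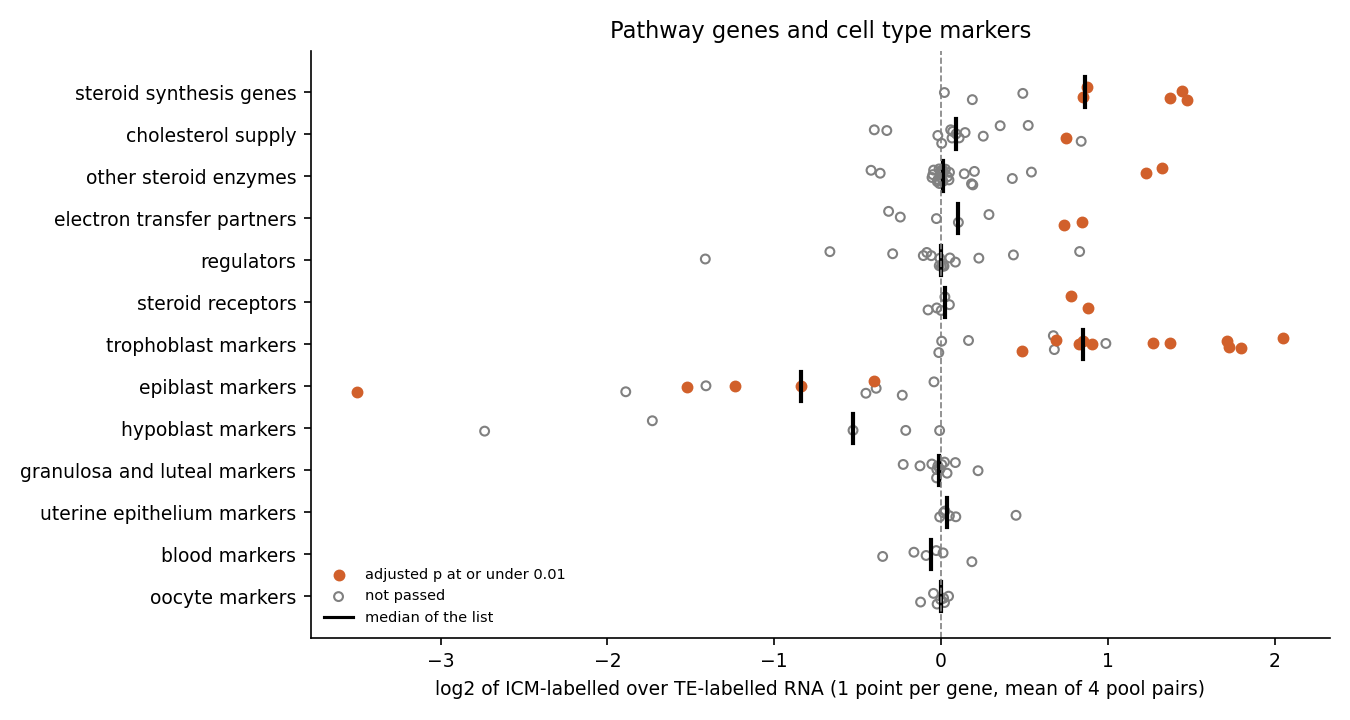
Log2 ratio of ICM-labelled over TE-labelled RNA (x axis) with 1 point per gene for the steroid synthesis genes, 5 lists of related genes and 7 lists of cell type markers, filled where the adjusted p was at or under 0.01, with a bar at each median. The steroid synthesis genes (median 0.86) and the trophoblast markers (median 0.85) lie to the right, the epiblast markers (median -0.84) to the left, and most other lists around 0.

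Steroid-producing cells of the mother were looked for by their markers. None of 12 granulosa and luteal markers passed, and their summed log2 level was 96.0 to 97.0 in the pools labelled ICM and 96.1 to 96.9 in those labelled TE. FOXL2, a defining factor of granulosa cells, was above the detection limit on 0 of 16 channels, and the gonadotropin receptor gene LHCGR and the inhibin gene INHA each on 0 ICM-labelled and 1 TE-labelled channel. Other markers of the list were detected, INSL3, OXT and NR5A1 on all 16 channels, PTX3 on 6 ICM-labelled and 7 TE-labelled ones, and the FSH receptor gene FSHR on 7 and 5 with a log2 ratio of 0.22 (SE 0.09, adjusted p = 0.242). The part of such cells in the result was not tested. None of 6 measured uterine epithelium, 6 blood or 7 oocyte markers passed. The uterine epithelium marker MUC1 had a log2 ratio of 0.45 (SE 0.13, adjusted p = 0.115), above 0 on all 8 arrays, with pools that did not overlap. The summed levels of the uterine epithelium, blood and oocyte markers were 47.1 to 47.8, 48.8 to 52.1 and 55.4 to 55.5 with the ICM label. With the TE label they were 46.7 to 47.0, 48.9 to 53.1 and 55.3 to 55.9. The 5 measured hypoblast markers did not pass either, with a median log2 ratio of -0.53 and summed levels of 46.2 to 48.6 with the ICM label and 52.2 to 53.1 with the TE label.

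The genes whose levels were most like those of CYP11A1, HSD3B1 and CYP19A1 over the 8 pools were found by Pearson's r among 10405 other genes. These values share arrays and pools, and the difference between the labels is part of each r, so they are given as a description. Closest to CYP11A1 were the organic anion transporter gene SLCO2B1 (r = 0.995), the adaptor gene AFAP1L2 (0.994) and UNC13D, which acts in granule release (0.994). Closest to HSD3B1 were the kinase gene MAPK13 (0.993), PIGF, which acts in glycosylphosphatidylinositol anchor synthesis (0.992), and again UNC13D (0.990). Closest to CYP19A1 were the asparaginase gene ASRGL1 (0.990), the proton pump subunit gene ATP6V0C (0.986) and the growth factor gene NRG1 (0.981). Of these 8 genes, 7 were called higher with the ICM label, from 0.50 for MAPK13 to 1.93 for UNC13D, and NRG1 was not (0.57, adjusted p = 0.0324). Over all named genes 3.35% were called higher, but a choice by r to genes that differ between the labels favours such calls. UNC13D was called by 1 of its 3 probes and PIGF by 1 of 2.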

How the data were processed

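RNA of 4 pool pairs was measured on 8 two-color arrays. The authors deposited raw spot intensity and local background intensity per channel, extracted with Array-pro, and a table of log2 ratios, made per the methods by background subtraction with loess and quantile normalization. Its scale, centring and direction are not stated. It was taken as log2 Cy5 over Cy3, centred near 0 (r with the scanner values 0.576 to 0.868, column medians -0.0257 to 0.00451). The submitters' processing notes name limma.

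Intensities were corrected by normexp (offset 50) on mean signal and mean local background and normalized by loess within arrays (control spots at weight 0, ignored spots left out) and Aquantile between arrays. Ratios were turned to ICM label over TE label and averaged over the 2 arrays of a pair. Pair means were compared with 0 by lmFit and eBayes of limma 3.58.1 (R 4.3.3), with Benjamini-Hochberg adjustment over 43794 probes. Every adjusted p given comes from limma. The steps were tested on simulated data. The offset shrinks the ratios of dim probes. The number of pool pairs limits the precision of the main fit. The p-values of the main fit measure the spread between the 4 pool pairs, and the sources used here do not say whether each pair had its own cows. Those of the replicate block fits also draw on the spread between the arrays of a pair. The correlation within pairs was estimated there at 0.0356, and at 0.438 with a dye term.

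Same-numbered arrays deviated together (r = 0.553 to 0.839, against -0.548 to 0.158 between numbers), and the labels number the biological replicates, so the numbers pair the arrays. Arrays correlated with r of 0.499 to 0.822 across probes, which are not independent replicates.

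Symbols come from the platform annotation (21790 probes with 1 symbol, 22004 without), with synonyms looked up in RefSeq genes of ARS-UCD2.0. A gene is represented by its brightest probe. Whether probes bind transcripts of related family members was not assessed. Named are all members, every pathway gene that passed (or, in a list with none, the 2 of smallest p), the 3 trophoblast and 3 epiblast markers of smallest p, and the 3 genes most like CYP11A1, HSD3B1 and CYP19A1 among those above the detection limit on at least 8 channels. The members and lists were chosen with earlier results of these data known. Probe and promoter sequences and genome positions were not used here.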

Additional observations from a re-analysis of the deposited data

Results flagged for a closer look

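Of 34 named probes tested for a pool pair far from the other 3, 2 had one, and in groups of 4 about 1 in 20 is marked by chance. None of the steroid synthesis probes tested was among them, and that of HSD17B1, not well above background, was not tested. The PGRMC1 probe had a log2 ratio of 1.19 in pool pair 3 against 0.75 to 0.81 in the other pairs. The PIGF probe had a log2 ratio of 0.73 in pool pair 2, which stood above the other 3.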

How the results depend on the processing

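The 5 steroid synthesis genes called higher became 0 when median centring replaced loess, 3 with only the ICM-in-Cy3 arrays, and were 0 to 4 when a pool pair was left out. They were 5 to 7 under the other alternatives, and none was called lower under any. The probes called numbered 1433, and 1 with median centring, 4029 in the authors' log2 ratios, 5320 with the pool pair as replicate block, 4531 with that replicate block and a dye term, 2355 among probes above the detection limit on at least 8 channels (fewer probes tested), 2897 with the median local background, and 0 to 828 when a pool pair was left out. The 7 other pathway genes called higher became 0 with median centring, 14 with the replicate block, 13 with the replicate block and a dye term, and 0 to 4 when a pool pair was left out. The 0 called lower became 6 in the authors' log2 ratios and 6 with the replicate block, 3 with the block and dye term, 1 with ICM in Cy5 alone, 1 among probes above the detection limit, 1 with the median local background, and 0 to 1 when a pool pair was left out. With median centring 7190 probes had an unadjusted p under 0.05, and 4 steroid genes an adjusted p at or under 0.05. By the labels, higher calls made up 58.6% of all calls, against 70.6% with only the ICM-in-Cy3 arrays, 50.4% with only the ICM-in-Cy5 arrays, 50.6% in the authors' log2 ratios and 51.8% with the replicate block, and with the labels turned these would be the shares of lower calls. None of the 34 probes recomputed under the alternatives changed sign. Of their values, 450 kept their side of the limit, 138 lost the call and 35 gained it. The causes were not tested. The replicate block fit without a dye term took the arrays of a pair as nearly independent, so its counts do not rest on the spread between pool pairs alone. Leaving out the normalization between arrays changed no ratio, since Aquantile leaves the ratios as they are. The median local background, the median spot signal and the quantile alternatives were chosen after seeing the data. Dim signal limits CYP11A1, CYP17A1, CYP19A1 and HSD17B1.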
